A study of Mus musculus with 12 samples.

Results

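The effect of a Tet2 mutation labelled Mut was compared between LSK cells and cells labelled MPP of mouse bone marrow. The measure was the effect of Mut in LSK (LSK Mut against LSK WT) minus its effect in MPP (MPP Mut against MPP WT), called the interaction here. It uses 8 of the 12 RNA sequencing libraries of the series, in 4 groups of 2: LSK Mut, LSK WT, MPP Mut and MPP WT. A positive value means that the mutant effect lay higher in LSK than in MPP, and a negative value that it lay lower. The other 4 libraries, from Tet2 knockout (KO) mice, entered the fit to help estimate the spread and are no term of the comparison. LSK stands for the lineage-negative marrow fraction positive for Sca-1 and Kit, which holds the blood stem cells, and MPP for multipotent progenitors. Mut mice carry a changed Tet2 whose altered residues the labels do not give, KO mice lack Tet2 by label, and WT mice are wild type. All mice had a mixed 129/C57/B6 background and were 10 weeks old. For each genotype the marrow of 2 mice was pooled before sorting, and the 2 libraries of a group are technical replicates of that pool. P values and SEs therefore reflect how libraries from 1 pool differ and say nothing of differences between mice.

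Tet2 is a dioxygenase that oxidises methylated cytosine in DNA, and it also acts as a scaffold for other proteins, such as the sugar transferase Ogt and histone deacetylases. A mutant that keeps the protein but changes it can thus be set against a knockout that lacks it, and the title of the series asks which roles of Tet2 in blood stem and progenitor cells do not need its catalysis. Loss of Tet2 in mice is known for enlarging the stem and progenitor compartment and favouring the myeloid lineage. Myeloid progenitors make large amounts of the proteins of future granules (myeloperoxidase, elastase and related proteases), while stem cells make little of them.

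Between 9181027 and 23532847 gene counts were made in each library, so that 3 counts, the limit that a count of 0 allows, correspond to 0.317 CPM (gene counts relative to library size, scaled by TMM) at the lowest depth. The LSK WT libraries stood apart. They detected 12470 and 12614 genes, against 13333 to 14264 in the other 10 libraries. Across genes they correlated with each other at r = 0.879 (log2 of CPM + 1), against 0.957 to 0.968 within the other groups, and 158 genes averaging 50 counts or more were at 0 in 1 of the 2, against 2 to 51 genes in the other groups. Rn45s, the ribosomal RNA precursor, took 0.981% and 1.09% of counts in LSK Mut, against 3.65% and 3.70% in LSK WT. LSK KO lay between, at 2.47% and 2.51%. The libraries labelled MPP held 0.873% to 1.10%, so on this row LSK Mut lay at their level, apart from both other LSK groups. The spike-in RNAs took 0.0822% to 0.229% of all counts in LSK libraries and 3.16% to 5.15% in those labelled MPP. The sort markers separated the populations. Ly6a, which encodes Sca-1, had 121 and 126 CPM in LSK Mut, against 93.3 and 58.4 CPM in LSK WT, and 20.6 and 20 CPM in MPP Mut, against 17.6 and 17.3 CPM in MPP WT. Flt3, a receptor of multipotent progenitors, had 752 and 718 CPM in LSK Mut, against 863 and 953 CPM in LSK WT, and 101 and 133 CPM in MPP Mut, against 96 and 89.7 CPM in MPP WT. The libraries labelled MPP were thus low in Sca-1 and Flt3 and held abundant transcripts of granulocytes and basophils, given with the results, which go against the name multipotent progenitor. The titles call the same libraries Lin, and the labels do not give the gates. MPP is used here as the name on the label.

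Tet2 itself (chromosome 3, 133463679 to 133545139 of GRCm38) had 43.4 and 44.4 CPM in LSK Mut, against 87.3 and 62.7 CPM in LSK WT, and 40.2 and 37.4 CPM in MPP Mut, against 39.6 and 29.4 CPM in MPP WT. The mutant libraries lay below the WT libraries in LSK and overlapped them in MPP. The interaction of Tet2 was -0.94 (SE 0.401, adjusted p = 0.266) on the log2 scale and missed the threshold. Tet1 and Tet3, the related dioxygenases, gave interactions of -0.49 (SE 0.609, adjusted p = 0.769) and -0.27 (SE 0.421, adjusted p = 0.831). A count over the whole gene does not show an altered residue, so these counts do not check the label Mut.

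More genes were called for Mut against WT in LSK than in MPP, and the difference between the 2 effects was called for 355 genes. These were 2.53% of the 14033 genes tested (adjusted p below 0.05, edgeR quasi-likelihood test), with 213 positive (1.52%) and 142 negative (1.01%). An unadjusted p below 0.05 was reached by 2390. In the same fit, 949 genes were called for Mut against WT in LSK (6.76%), 611 higher (4.35%) and 338 lower (2.41%), and 13 in MPP (0.0926%), 9 higher (0.0641%) and 4 lower (0.0285%). Of the 355 genes, 311 were called in LSK and not in MPP, 7 in MPP and not in LSK, 35 in neither, 2 in both populations in opposite directions and 0 in both in the same direction. The positive genes were higher in LSK Mut than in LSK WT in 212 of 213 cases, with a median fitted log2 effect of 1.16 in LSK and -0.24 in MPP. The negative genes were lower in LSK Mut in 138 of 142 cases, with medians of -1.04 in LSK and 0.41 in MPP. The effect was larger in LSK than in MPP for 319 of the 355 genes (89.9%), against 65.3% of all genes tested. Both effects enter the interaction, so these shares describe the genes called and are no further test. Nearest to the threshold, Drg1 lay inside (interaction 0.88, adjusted p = 0.0493) and Samd3 outside (adjusted p = 0.0501).

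**Figure D1:**
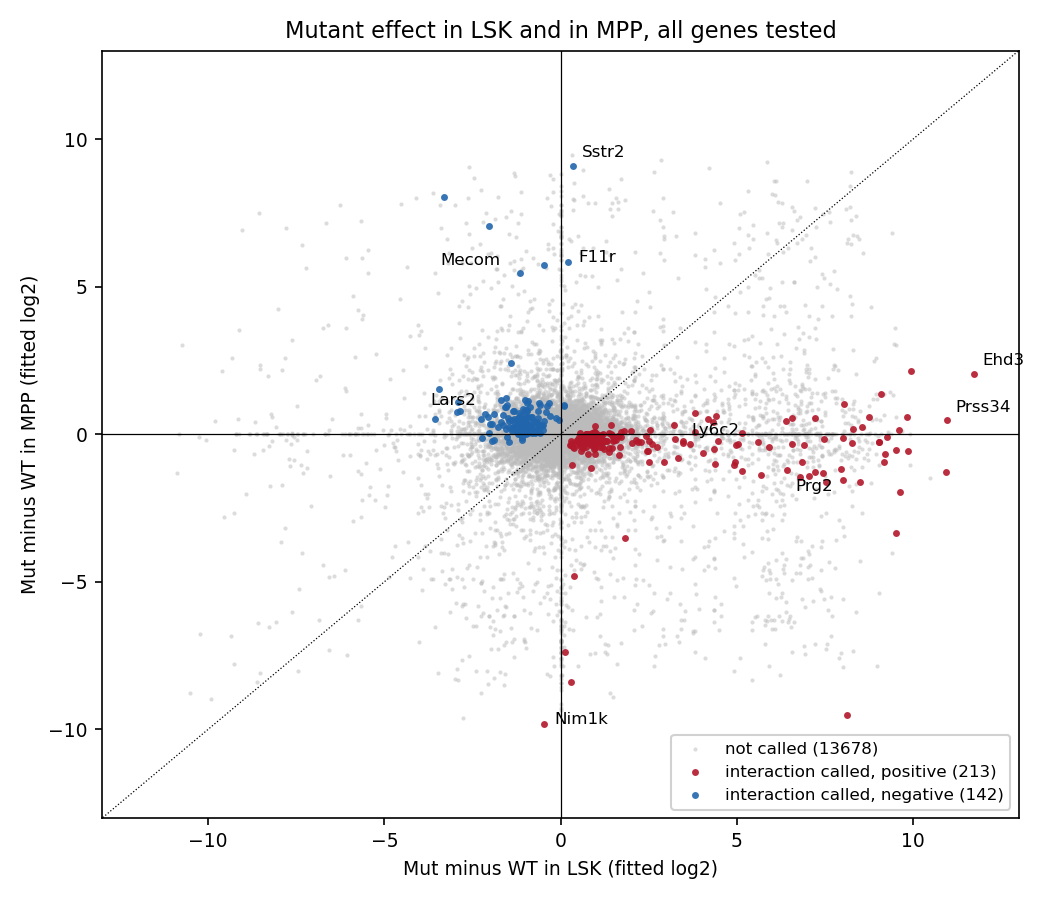
Fitted log2 effect of Mut against WT in LSK (horizontal) and in MPP (vertical) for the 14033 genes tested, with the 213 positive interaction calls in red and the 142 negative calls in blue. Most red points lie right of 0 and most blue points left of it, close to the horizontal line at 0, while far-out points such as Prss34, Ehd3, Sstr2 and Nim1k have a group with 0 counts and a place that depends on the prior count of the fit.

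The count of calls rested on single libraries. Without LSK WT replicate 1 or 2, the libraries that stand apart, 1259 and 1405 genes were called. Without LSK Mut replicate 1 or 2 it was 96 and 95, without MPP Mut replicate 1 or 2 it was 71 and 94, and without MPP WT replicate 1 or 2 it was 108 and 78. Without MPP KO replicate 1 or 2, which are no term of the contrast, 220 and 212 were called. Scaling by the spike-ins gave 5428 calls, of which 99.7% were positive, against 60% in the fit used here. The median interaction of all genes was 1.74 on the log2 scale under spike-in scaling, against 0.08. All 355 genes called lay on the same side of the median of all genes under spike-in scaling as in the fit used here. A change of scaling moves most genes by about the same amount, so this was nearly fixed in advance and is no further support. The same holds for the list medians set against that of all genes below. In LSK WT, the high Rn45s share, the lower number of genes detected and the wider spread moved with the LSK effect in both directions. Their part in the calls was not tested, and the Rn45s share of LSK KO was also above that of LSK Mut.

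Genes of the granule-forming myeloid progenitor made up the clearest group among the positive calls. Of 22 genes of a granulocyte-monocyte progenitor list, 11 were called positive and 0 negative, and the median interaction of the list was 0.97, against 0.08 over all genes tested. The 11 were Mpo, Elane, Ly6c2, Ms4a3, Nkg7, Cst7, Cebpe, Irf8, Ctsg, Prtn3 and Calr. With 1 library left out, 6 to 14 members were called positive, with the lowest counts of 6 without MPP Mut replicate 1 and 7 without LSK Mut replicate 2, MPP Mut replicate 2 or MPP WT replicate 2. The medians of the list were 0.66 in LSK and -0.28 in MPP. In bulk libraries, fewer cells of a type and less RNA per cell cannot be told apart. Summed over the list, the level was 8315 to 8592 CPM in LSK Mut, against 3763 to 4371 CPM in LSK WT, and 54170 to 56800 CPM in MPP Mut, against 66980 to 70330 CPM in MPP WT. Mpo alone averaged 33136 CPM in MPP Mut and 37456 CPM in MPP WT, most of these MPP sums.

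Mpo (chromosome 11, 87793581 to 87804413), the myeloperoxidase of neutrophil and monocyte granules, had the lowest p among the positive genes. It was at 4662 and 4333 CPM in LSK Mut, against 1522 and 1638 CPM in LSK WT. The MPP libraries held 33875 and 32397 CPM in Mut, against 36782 and 38129 CPM in WT. The mutant libraries lay above the WT libraries in LSK and below them in MPP, without overlap in either. Lack of overlap between 2 and 2 libraries is common, at 45.2% of all genes tested in LSK and 37.5% in MPP. The log2 effect was 1.51 (SE 0.0481, adjusted p = 2.89e-08) in LSK and -0.18 (SE 0.047, adjusted p = 0.421) in MPP, and the interaction was 1.69 (SE 0.0669, adjusted p = 3.17e-07), which means that the fold of Mut over WT was 3.22 times as large in LSK. Seen across populations, LSK minus MPP was -2.88 in Mut and -4.57 in WT on the log2 scale. Elane (chromosome 10, 79886247 to 79888215), the neutrophil elastase, was at 467 and 467 CPM in LSK Mut, against 121 and 177 CPM in LSK WT. In MPP it was at 8076 and 7582 CPM in Mut, against 12307 and 13043 CPM in WT. Its interaction was 2.34 (SE 0.188, adjusted p = 0.000137), and the libraries again did not overlap in either population.

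Promoters of 3 of these genes are shown because the genes moved together, with the letters of 1 searched motif in capitals. The sequences are from RefSeq on GRCm38.p6, read 5′ to 3′ on the strand of the gene and ending at the base before the first exon of the annotation.
Mpo (chr11:87793534-87793580, plus strand): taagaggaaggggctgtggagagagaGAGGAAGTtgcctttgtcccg
Elane (chr10:79886062-79886246, plus strand): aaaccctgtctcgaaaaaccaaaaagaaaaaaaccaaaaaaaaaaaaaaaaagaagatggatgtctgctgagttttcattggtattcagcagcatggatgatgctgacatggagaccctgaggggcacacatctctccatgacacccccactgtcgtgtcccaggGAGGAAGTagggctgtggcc
Ms4a3 (chr19:11640852-11641101, minus strand): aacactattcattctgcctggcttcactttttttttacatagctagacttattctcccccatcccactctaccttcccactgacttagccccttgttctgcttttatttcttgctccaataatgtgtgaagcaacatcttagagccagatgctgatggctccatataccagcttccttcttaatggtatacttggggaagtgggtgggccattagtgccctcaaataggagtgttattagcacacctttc
The capitals mark GAGGAAGT, a motif bound by PU.1, the factor that drives early myeloid genes. Both strands were searched in the windows printed. Mpo and Elane held 1 match each and Ms4a3 held 0, and 2.44% of the 27025 promoters of the same table (250 bases each) held at least 1. The motif of the C/EBP factors, TTGCNNAA, was found in none of the 3 windows and in 9.55% of all promoters. The Mpo and Elane windows hold 47 and 185 bases, fewer than the promoters behind these shares, so the shares are no like measure for them. A match of letters is a description and no evidence of binding.

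Ly6c2 (chromosome 15, 75108158 to 75111970), a surface antigen of monocytes and their progenitors, was at 119.9 and 122 CPM in LSK Mut, against 4.75 and 16.4 CPM in LSK WT, and at 1535 and 1523 CPM in MPP Mut, against 1868 and 1885 CPM in MPP WT. The 2 mutant LSK libraries were nearly equal, the 2 WT libraries differed severalfold, and both pairs stood apart. Its interaction of 3.78 (SE 0.465, adjusted p = 0.00349) was the largest of the list in a gene with over 100 counts in every group. Ms4a3 (chromosome 19, 11629496 to 11640851), a membrane protein that marks granulocyte-monocyte progenitors, was at 82.2 and 99 CPM in LSK Mut, against 36.7 and 41.4 CPM in LSK WT, with an interaction of 1.43 (SE 0.177, adjusted p = 0.00349). Irf8 (chromosome 8, 120736358 to 120756694), the transcription factor of monocytes and dendritic cells, was at 174 and 178 CPM in LSK Mut, against 55 and 88.8 CPM in LSK WT, and at 476 and 486 CPM in MPP Mut, against 557 and 566 CPM in MPP WT. Its interaction was 1.51 (SE 0.247, adjusted p = 0.0132). Nkg7, a protein of cytotoxic granules, gave 1.0 (SE 0.13, adjusted p = 0.00419). It also belongs to a list of 14 T and NK cell genes, of which it and Klrd1 were called positive and 0 negative, 13 values lay above 0 and 8 had a group with 0 counts (median 5.64, or 2.13 with these at their bound). That list summed to 487 to 519 CPM in LSK Mut, against 348 to 364 CPM in LSK WT, and to 1320.0 to 1436 CPM in MPP Mut, against 1726 to 1858 CPM in MPP WT, and its part in the value of Nkg7 was not tested. Among the further members, the interaction was 1.35 for Ctsg (cathepsin G), 1.46 for Prtn3 (proteinase 3), 1.49 for Cst7 (the protease inhibitor cystatin F) and 0.73 for Calr (the chaperone calreticulin), with adjusted p between 0.00831 and 0.029. Cebpe, a factor of late granulocyte maturation, averaged 4.51 CPM in LSK Mut, against 0.145 CPM in LSK WT, and 48.4 CPM in MPP Mut, against 92.1 CPM in MPP WT (adjusted p of the interaction 0.00901). Elane and Ms4a3 lost their calls with limma-voom with sample quality weights, and Irf8 lost its call in the fit of the 8 Mut and WT libraries alone. Mpo, Elane, Ly6c2, Ms4a3 and Nkg7 kept their calls with any 1 of the 12 libraries left out, while Irf8 lost its call without LSK Mut replicate 2 or any 1 of the 4 MPP Mut and WT libraries.

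**Figure D2:**
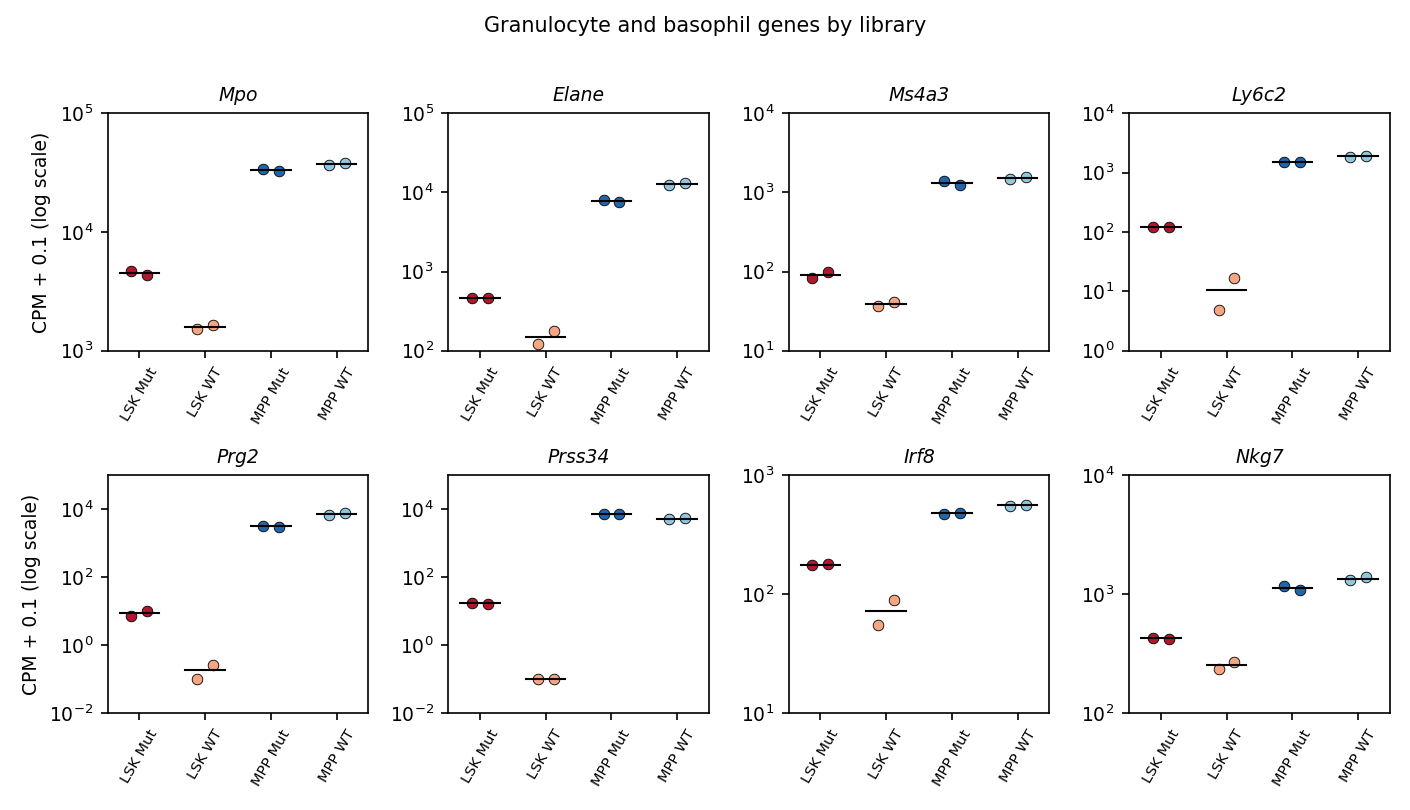
CPM + 0.1 on log axes, with a scale of its own for each gene, of 8 granule, basophil and myeloid genes in each library of LSK Mut, LSK WT, MPP Mut and MPP WT, where points are libraries and bars are the means of 2. In LSK each gene lies higher in Mut than in WT, and the levels in MPP lie well above those in LSK.

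Genes of mature neutrophils had 2 calls. Of 16 genes of a neutrophil list, 2 were called positive and 0 negative, and 10 of the 16 values lay above 0. Among all genes tested, 1.52% were called positive and 1.01% negative. The median interaction of the list was 1.20 (1.15 with genes at 0 in a group set at their bound), with medians of 0.40 in LSK and -0.48 in MPP, and 9 of the 16 had a group with 0 counts. The called genes were Chil3, a chitinase-like protein, and Ifitm6, an interferon-inducible membrane protein of myeloid cells. Both had 0 counts in LSK WT and few in LSK Mut, 78 and 94 over both libraries, so that LSK Mut was at least 15.7-fold and at least 19-fold higher when 3 counts are allowed to LSK WT. S100a8, an alarmin of mature neutrophils, averaged 23.2 CPM in LSK Mut, against 62.8 CPM in LSK WT, and 742 CPM in MPP Mut, against 1442 CPM in MPP WT (interaction -0.48, adjusted p = 0.653). It was named after its values were seen. The list summed to 103.8 to 107.5 CPM in LSK Mut, against 206 to 210.2 CPM in LSK WT, and to 1256 to 1258 CPM in MPP Mut, against 2329 to 2439 CPM in MPP WT. The summed level of mature neutrophil markers was thus lower in Mut in both populations, while that of the progenitor list was higher in Mut in LSK and lower in MPP.

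Prg2 (chromosome 2, 84980461 to 84983632), the major basic protein stored by eosinophils, was 1 of the 2 genes called in opposite directions in LSK and MPP. It was at 6.94 and 10 CPM in LSK Mut, against 0 and 0.159 CPM in LSK WT, where 2 counts were found. In MPP it was at 3330.0 and 3027 CPM in Mut, against 6921 and 7726 CPM in WT. Mut was thus higher in LSK, with a count ratio of 93.8 (95% interval 25.8 to 778), and lower in MPP, with a log2 effect of -1.20 (SE 0.15, adjusted p = 0.015). The interaction had an adjusted p of 7.44e-06. The opposite calls were kept in 7 of the 12 fits that left out 1 library and lost without MPP Mut replicate 1 or 2, MPP WT replicate 1 or 2 or MPP KO replicate 1, through the effect in MPP, whose adjusted p in these ran from 0.0509 to 0.191. Under spike-in scaling it was 0.166, and limma-voom with sample weights gave the interaction an adjusted p of 0.671. In LSK KO, Prg2 was at 144 and 137 CPM. Of 10 eosinophil genes tested, Prg2 was the only one called for the interaction. Epx, the eosinophil peroxidase, was at 0 CPM in all LSK Mut and WT libraries and averaged 606 CPM in MPP Mut, against 1522 CPM in MPP WT (log2 effect -1.33, adjusted p = 0.00166). It was named after its values were seen. The list summed to 32.9 to 39.3 CPM in LSK Mut, against 1.51 to 46.1 CPM in LSK WT, and to 4207 to 4384 CPM in MPP Mut, against 9060 to 9974 CPM in MPP WT. Prg2 made up most of the MPP sums, which are no separate view of it.

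Basophil and mast cell genes did not share a direction. Of 11 tested, Prss34 and Ms4a2 were called positive and Fcer1a negative. Prss34 (chromosome 17, 25298394 to 25300165), a protease of basophils and mast cells, was at 17.5 and 15.8 CPM in LSK Mut and had 0 counts in LSK WT, so that Mut was at least 122-fold higher. MPP libraries held 7461 and 7098 CPM in Mut, against 5026 and 5381 CPM in WT, a log2 effect of 0.48 (SE 0.17, adjusted p = 0.667). The adjusted p of the interaction was 8.71e-05. LSK KO held 0.331 and 0 CPM. Ms4a2, the beta chain of the high-affinity IgE receptor, was at 6.94 and 2.11 CPM in LSK Mut, against 0 and 0.0797 CPM in LSK WT, a count ratio of 98.7 (95% interval 17.5 to 3921). Fcer1a, the alpha chain of the same receptor, was at 10.4 and 11 CPM in LSK Mut, against 15.3 and 32.9 CPM in LSK WT, and at 594 and 557 CPM in MPP Mut, against 349 and 341 CPM in MPP WT. Its interaction was -1.92 (SE 0.441, adjusted p = 0.0463), opposite to that of Ms4a2. Prss34, Ms4a2 and Fcer1a all lost their calls with limma-voom with sample quality weights. Ms4a2 and Fcer1a also lost theirs in the fit of the 8 Mut and WT libraries alone, where Prss34 kept its call. Fcer1a also lost its call under spike-in scaling. The list summed to 1030 to 1129 CPM in LSK Mut, against 1213 to 1222 CPM in LSK WT, and to 12840 to 13390 CPM in MPP Mut, against 9096 to 9644 CPM in MPP WT. Prss34 alone averaged 7279 CPM in MPP Mut and 5204 CPM in MPP WT. It thus made up most of the MPP sums, which are no separate view of it. The part of the other members in its values was not tested.

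Antigen presentation genes were among the positive calls. Of 17 genes of a dendritic cell and MHC class II list, 4 were called positive and 0 negative, against 1.52% and 1.01% of all genes tested. The median of the list was 1.51. H2-Ab1, a chain of the class II molecule, was at 157 and 162 CPM in LSK Mut, against 48.6 and 53.7 CPM in LSK WT. In MPP it was at 41.3 and 40.3 CPM in Mut, against 48.6 and 36.9 CPM in WT. The libraries stood apart in LSK and overlapped in MPP, and the interaction was 1.71 (SE 0.378, adjusted p = 0.0393). H2-Aa, the partner chain, gave 2.72 (SE 0.58, adjusted p = 0.0349), and Cd74, the invariant chain that chaperones both, gave 1.13 (SE 0.236, adjusted p = 0.032). The remaining call was Irf8. From 0 to 6 members were called with 1 library left out, with 0 in the fits without MPP Mut replicate 2 and without either MPP WT library. Cd48, a surface protein used to separate progenitors from stem cells, was the only gene of the sort gate list called, with 236 and 228 CPM in LSK Mut, against 115 and 124 CPM in LSK WT, and an interaction of 1.01 (SE 0.215, adjusted p = 0.0349). Slamf1, a stem cell marker of the same gate, was at 2.63 and 5.51 CPM in LSK Mut, against 28.1 and 41.9 CPM in LSK WT (interaction adjusted p = 0.487). Neither pair overlapped, and the interaction of Slamf1 missed the threshold.

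Of the 12 positive genes with the largest fitted values, 11 had no count in LSK WT, and the other, Nim1k, had none in MPP Mut. A count of 0 in LSK WT held for 34 of the 213 positive genes and 0 of the 142 negative genes. A gene at 0 in LSK WT cannot lie lower in LSK Mut, as 138 of the 142 negative genes did. The 0 among the negative genes was thus nearly fixed in advance. Of all 14033 genes tested, 1848 had 0 counts in at least 1 of the 4 groups, against 37 of the positive and 3 of the negative genes. Ehd3 (chromosome 17, 73804134 to 73832094), a protein of endocytic recycling, was at 32.5 and 24.6 CPM in LSK Mut, at least 209-fold above LSK WT, and at 30.9 and 19.5 CPM in MPP Mut, against 9.66 and 2.4 CPM in MPP WT. Arhgef11, an activator of the GTPase RhoA, was at 22.1 and 10.9 CPM in LSK Mut, at least 120.1-fold above LSK WT. Dram1, a lysosomal protein linked to autophagy, was at 6.77 and 3.57 CPM in LSK Mut, at least 37.7-fold above LSK WT, and at 42.7 and 54.5 CPM in MPP Mut, against 55.2 and 48.9 CPM in MPP WT. These 3 genes had 0 counts in the LSK WT libraries and were detected in all other groups, LSK KO included, where Ehd3 was at 7.46 and 8.62 CPM and Arhgef11 at 11.6 and 22 CPM. Cd14, the co-receptor for bacterial lipopolysaccharide, was at 9.85 and 2.54 CPM in LSK Mut (at least 45-fold), and Trem1, an activating receptor of myeloid cells, at 3.75 and 5.08 CPM (at least 32.5-fold). Mapk13, a p38 kinase, was at 11.4 and 1.89 CPM (at least 48-fold), Pik3r6, an adaptor of PI3-kinase gamma, at 8.96 and 4.05 CPM (at least 47.4-fold) and Syt3, a synaptotagmin, at 3.14 and 9.18 CPM (at least 45.6-fold). Several of these pairs differed between the 2 mutant libraries by over 2-fold. Rwdd2a (at least 31.9-fold), Cx3cr1, the fractalkine receptor (at least 23.2-fold), and the p53 targets Perp (at least 60.3-fold) and Phlda3 (at least 33.5-fold) had the same pattern. Klrd1, a receptor subunit of NK cells, had 1 count in LSK WT and a count ratio of 58.1 (95% interval 10.2 to 2319). Adjusted p of the interaction ran from 0.00966 for Dram1 to 0.0446 for Rwdd2a in these genes. Arhgef11 and Dram1 kept their calls in all 12 fits that left out 1 library, Cd14 in 11, Pik3r6 in 9, Ehd3 in 8, Mapk13 in 7, Cx3cr1 in 6 and Trem1 in 4. Perp and Klrd1 kept theirs in 3 and Syt3, Rwdd2a and Phlda3 in 2. The low number of genes detected in LSK WT moves with this pattern, and its part was not tested. All genes named in this paragraph lost their interaction calls with limma-voom with sample quality weights. All but Dram1 also lost them in the fit of the 8 Mut and WT libraries alone.

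The negative side was led by noncoding RNAs and by RNAs of the ribosome. Lars2 (chromosome 9, 123366927 to 123462666), the mitochondrial leucyl-tRNA synthetase, had the lowest p of all genes and was the second gene called in opposite directions in the 2 populations. It was at 4436 and 4104 CPM in LSK Mut, against 17048 and 18262 CPM in LSK WT. As a share of counts, Lars2 took 1.27% and 1.29% in LSK KO. That lay between LSK Mut (0.476% and 0.442%) and LSK WT (1.76% and 1.89%). MPP libraries held 3661 and 3582 CPM in Mut, against 2313 and 2531 CPM in WT. The effect was -2.05 (SE 0.0592, adjusted p = 2.02e-08) in LSK and 0.58 (SE 0.0572, adjusted p = 0.003) in MPP, with an interaction of -2.63 (SE 0.0819, adjusted p = 4.59e-08). The opposite calls were kept in 9 of the 12 fits that left out 1 library and lost without MPP Mut replicate 1 or 2 or MPP WT replicate 1, where the effect in MPP had an adjusted p of 0.0961, 0.0519 and 0.0979. Under spike-in scaling the interaction of -0.98 missed the threshold (adjusted p = 0.0605). Rn45s was at 9144 and 10166 CPM in LSK Mut, against 35322 and 35642 CPM in LSK WT, and at 9233 and 10736 CPM in MPP Mut, against 11794 and 11007 CPM in MPP WT, with an interaction of -1.69 (SE 0.0959, adjusted p = 7.52e-06). Its effect was called in LSK and not in MPP, and in MPP it did not follow Lars2. Rn45s measures leftover ribosomal RNA in an mRNA library, and the origin of the reads counted for Lars2 was not tested. Leaving both rows out gave 353 interaction calls.

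Of 15 genes of a list of Rn45s and abundant noncoding RNAs, 7 were called negative and 0 positive, with a median of -1.36, and under spike-in scaling 2 were called positive and 0 negative, with a list median 1.43 below that of all genes. Malat1, a nuclear long noncoding RNA, was at 6096 and 6007 CPM in LSK Mut, against 11817 and 12633 CPM in LSK WT, and at 2412 and 2239 CPM in MPP Mut, against 1714 and 1959.6 CPM in MPP WT. Kcnq1ot1, the imprinted antisense transcript of Kcnq1, was at 140.2 and 97 CPM in LSK Mut, against 352 and 353 CPM in LSK WT, and at 78 and 79.8 CPM in MPP Mut, against 39.2 and 43.8 CPM in MPP WT. Both were lower in Mut in LSK and higher in Mut in MPP, with no overlap of libraries, and their interactions were -1.36 (SE 0.0917, adjusted p = 3.75e-05) and -2.50 (SE 0.254, adjusted p = 0.00096). Reads of Kcnq1ot1 and Kcnq1 cannot be told apart here, because the strand setting of the counts is not given. Zfas1, Snhg1 and Snhg8, hosts of small nucleolar RNAs, gave -1.48, -1.41 and -2.04 (adjusted p between 0.0124 and 0.0196). The protein-coding genes with the lowest p on this side were Ptma, which encodes prothymosin alpha, and Ddx17, an RNA helicase. Ptma was at 923 and 1009 CPM in LSK Mut, against 2027 and 1958 CPM in LSK WT, and gave -1.21 (SE 0.113, adjusted p = 0.000509). Ddx17 was at 218 and 199 CPM in LSK Mut, against 684 and 604 CPM in LSK WT, and at 112 and 105 CPM in MPP Mut, against 78.5 and 60.3 CPM in MPP WT, with an interaction of -2.27 (SE 0.214, adjusted p = 0.000509).

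Ribosomal protein genes formed the largest negative group. Of 80 tested, 18 were called negative and 0 positive, against 1.01% and 1.52% of all genes tested, with a median of -0.64. Under spike-in scaling 25 were called positive and 0 negative, with a list median 0.71 below that of all genes. In LSK 29 of the 80 were called lower in Mut and 1 higher, against 2.41% and 4.35% of all genes. In MPP edgeR called 0 in either direction, near the 0.0926% of all genes called there. An unadjusted p below 0.05 in MPP was reached by 1 of the 80, against 6.06% of all genes. Rplp1, which sits in the stalk of the ribosome, was at 342 and 400.0 CPM in LSK Mut, against 1702 and 1787 CPM in LSK WT. In MPP it was at 405 and 383 CPM in Mut, against 412 and 445 CPM in WT. The LSK WT libraries held several times the level of every other group but KO, where LSK held 966 and 837 CPM, and the interaction was -2.11 (SE 0.149, adjusted p = 4.98e-05). Rps21 was at 164 and 197 CPM in LSK Mut, against 620.3 and 623 CPM in LSK WT, and at 211 and 192 CPM in MPP Mut, against 165 and 176 CPM in MPP WT, with an interaction of -2.03 (SE 0.208, adjusted p = 0.000973). Rps24, like Rps21 a protein of the small subunit, gave -1.33 (SE 0.161, adjusted p = 0.00338). The list summed to 17300 to 18820 CPM in LSK Mut, against 26250 to 26960 CPM in LSK WT, and to 16140 to 16960 CPM in MPP Mut, against 15940 to 17520 CPM in MPP WT. It stood high in LSK WT and overlapped between the 2 MPP groups. Many of these genes have processed pseudogenes with near-identical sequence, so single values are uncertain where reads could be split. Rplp1, Rps21 and Rps24 kept their calls with any 1 of the 12 libraries left out. Counts of called members ran from 5 to 23, with 5 to 7 in the fits without any 1 of the 6 LSK Mut, MPP Mut and MPP WT libraries.

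Immediate early genes, which are transcribed within minutes of a stimulus, were negative as a group, in part through MPP. Of 25 tested, 6 were called negative and 0 positive, with a median of -0.54, 22 of 25 values lay below 0, and under spike-in scaling 10 were called positive and 0 negative, with a list median 0.61 below that of all genes. The 6 were Fosb, Egr1, Nr4a1, Fos, Klf4 and Klf6. Fosb (chromosome 7, 19302696 to 19310051), a subunit of the AP-1 factor, was at 315 and 310.5 CPM in LSK Mut, against 596 and 699 CPM in LSK WT, and at 290.5 and 268 CPM in MPP Mut, against 188 and 204 CPM in MPP WT. It was lower in Mut in LSK and higher in Mut in MPP, with an interaction of -1.56 (SE 0.159, adjusted p = 0.00096). Nr4a1, an orphan nuclear receptor, was at 136 and 121 CPM in LSK Mut, against 352 and 397 CPM in LSK WT, and at 134 and 115 CPM in MPP Mut, against 113 and 105 CPM in MPP WT. Its effect was called in LSK and not in MPP, and the interaction was -1.74 (SE 0.204, adjusted p = 0.00286). Egr1, a zinc finger factor, showed the reverse. It was at 735 and 673 CPM in LSK Mut, against 861 and 985 CPM in LSK WT, and at 809.8 and 827 CPM in MPP Mut, against 436 and 415 CPM in MPP WT. The effect was -0.39 (SE 0.105, adjusted p = 0.0503) in LSK, which missed the threshold, and 0.94 (SE 0.106, adjusted p = 0.0067) in MPP, with an interaction of -1.33 (SE 0.149, adjusted p = 0.00212). Fos (chromosome 12, 85473890 to 85477273), the partner of Jun in AP-1, was at 4911 and 4778 CPM in LSK Mut, against 5156 and 4916 CPM in LSK WT, where the mutant libraries lay just below the WT libraries and the effect of -0.06 (SE 0.0508, adjusted p = 0.565) missed the threshold. In MPP it was at 4530.4 and 4424 CPM in Mut, against 3129 and 3286 CPM in WT, and the interaction was -0.54 (SE 0.0719, adjusted p = 0.00484). Klf4 gave -2.07 (adjusted p = 0.0357) and Klf6 -0.89 (adjusted p = 0.0457), both zinc finger factors. Jun itself averaged 3286 CPM in LSK Mut, against 2628 CPM in LSK WT, and 3387 CPM in MPP Mut, against 2412 CPM in MPP WT (interaction -0.17, adjusted p = 0.675), and was named after its values were seen. Fosb, Egr1, Nr4a1 and Fos kept their calls with any 1 of the 12 libraries left out.

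Promoters of 3 of these genes are shown because all 3 were called negative, though the effect was called in LSK alone for Nr4a1 and in MPP alone for Fos. The searched motif is in capitals, and the sequences are from RefSeq on GRCm38.p6, read 5′ to 3′ on the strand of the gene.
Fosb (chr7:19310052-19310295, minus strand): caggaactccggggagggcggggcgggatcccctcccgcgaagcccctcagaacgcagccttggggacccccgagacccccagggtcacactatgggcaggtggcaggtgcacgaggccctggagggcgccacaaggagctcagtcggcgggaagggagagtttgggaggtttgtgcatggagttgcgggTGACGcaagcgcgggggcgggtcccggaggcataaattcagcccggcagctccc
Fos (chr12:85473640-85473889, plus strand): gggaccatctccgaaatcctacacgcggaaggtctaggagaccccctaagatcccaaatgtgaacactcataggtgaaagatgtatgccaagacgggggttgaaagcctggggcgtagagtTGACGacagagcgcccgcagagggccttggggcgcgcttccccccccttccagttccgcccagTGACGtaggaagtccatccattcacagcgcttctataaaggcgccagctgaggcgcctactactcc
Nr4a1 (chr15:101266596-101266845, plus strand): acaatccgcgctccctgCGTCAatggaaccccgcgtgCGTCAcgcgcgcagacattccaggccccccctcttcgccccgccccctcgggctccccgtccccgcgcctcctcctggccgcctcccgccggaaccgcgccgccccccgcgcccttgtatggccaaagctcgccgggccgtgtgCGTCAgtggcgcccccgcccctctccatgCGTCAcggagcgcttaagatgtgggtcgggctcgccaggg
The capitals mark TGACG or its reverse complement CGTCA, the core of the cyclic AMP response element bound by CREB. Fosb held 1 match, Fos 2 and Nr4a1 4, and 17.9% of the 27025 promoters (250 bases each) held at least 1. This core was searched after the full element TGACGTCA was found in none of the 3 windows (1.62% of all promoters). The AP-1 motif TGANTCA (6.87% of all promoters) and the CArG box of serum response factor (1.40%) were also found in none of them.

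**Figure D3:**
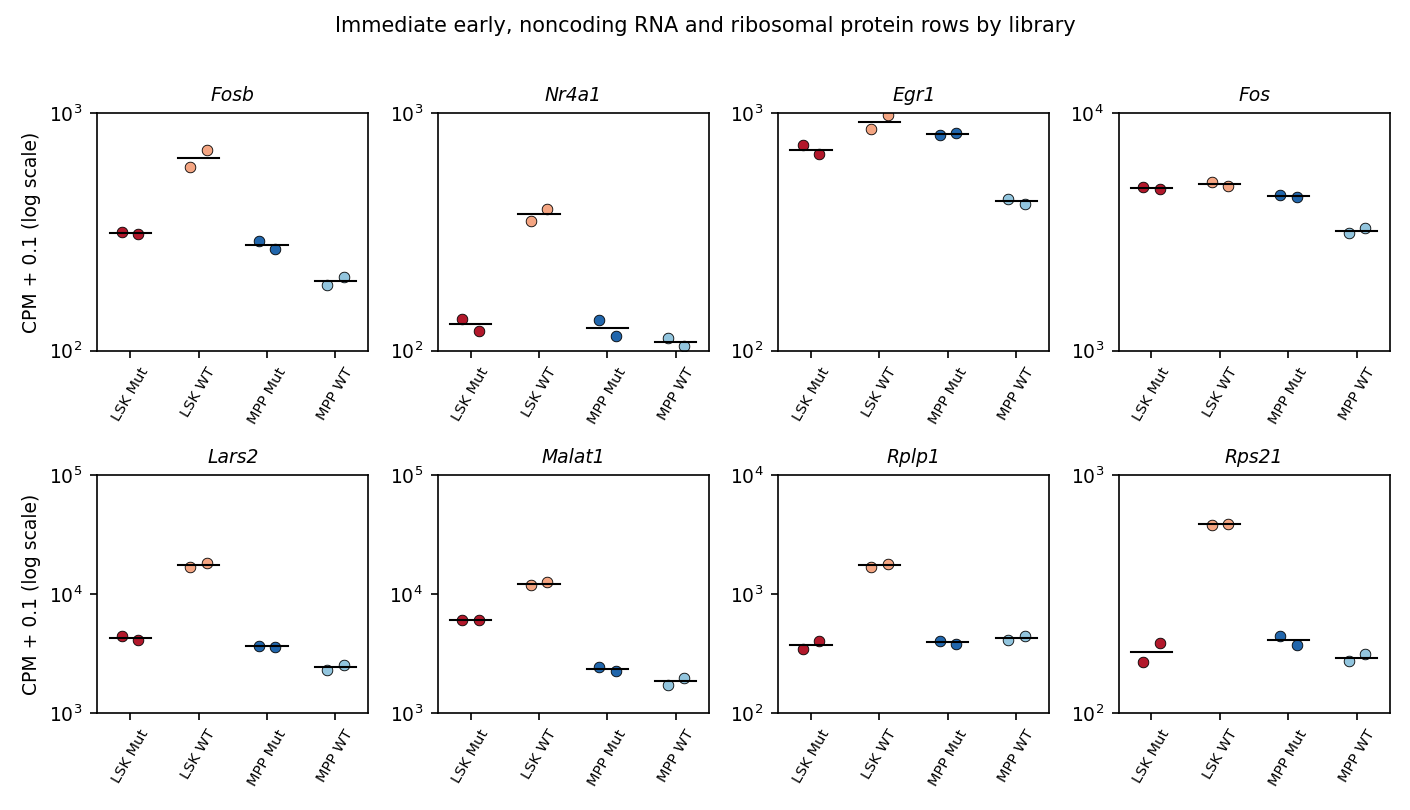
CPM + 0.1 on log axes, with a scale of its own for each gene, of 4 immediate early genes (top) and of Lars2, Malat1, Rplp1 and Rps21 (bottom) in each library of LSK Mut, LSK WT, MPP Mut and MPP WT, where points are libraries and bars are the means of 2. LSK WT lies above LSK Mut for Fosb, Nr4a1 and the 4 genes of the lower row, while for Egr1 and Fos the wider gap is that of MPP Mut above MPP WT.

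A few genes were called through MPP and not through LSK. Of the 7 genes called in MPP and not in LSK, Nim1k was positive and Egr1, Fos, Klf6, Rgs1, Sstr2 and F11r were negative. Nim1k, a kinase related to AMPK, had 0 counts in MPP Mut and 8.86 and 6.2 CPM in MPP WT, so that MPP WT was at least 97.3-fold higher. In LSK it was at 9.74 and 4.11 CPM in Mut, against 12.9 and 6.46 CPM in WT, which overlapped. Sstr2, a somatostatin receptor, was at 5.44 and 3.75 CPM in MPP Mut and had 0 counts in MPP WT, so that Mut was at least 39.6-fold higher. In LSK it was at 18.6 and 18 CPM in Mut, against 15.4 and 13 CPM in WT. F11r, a junctional adhesion molecule, had 3 counts in MPP WT and a count ratio of 63.7 (95% interval 21.6 to 311) of Mut over WT. Rgs1, a brake on chemokine receptor signalling, averaged 526 CPM in MPP Mut, against 272 CPM in MPP WT, and 575 CPM in LSK Mut, against 541 CPM in LSK WT (interaction -0.86, adjusted p = 0.0421). Of the remaining 4 genes called in MPP, which missed the interaction threshold, Gas5 and Hspa8 were also called higher in LSK Mut (log2 effects 0.86 and 1.38 in LSK, 1.52 and 1.06 in MPP). Gbp2b had 0 counts in both Mut groups and averaged 8.09 CPM in LSK WT and 4.2 CPM in MPP WT. The last was Epx. Leaving out 1 library gave 0 to 34 called genes in MPP, so this short list rests on single libraries. Without MPP Mut replicate 2 or MPP WT replicate 1, 0 were called, and without MPP Mut replicate 1 it was 1.

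The stem cell and lymphoid-primed lists had 2 calls each, all negative, against 1.01% called negative among all genes tested. Under spike-in scaling 5 and 7 genes of these lists were called positive and 1 and 0 negative. Of 24 blood stem cell genes, 2 were called negative and 0 positive, with a median of -0.52. Mecom, whose product Evi1 maintains stem cells, was at 32.4 and 19.4 CPM in LSK Mut, against 61.9 and 54.1 CPM in LSK WT, and at 1.08 and 3.29 CPM in MPP Mut, against 0 and 0.10 CPM in MPP WT, where it had 1 count. Mllt3, a chromatin reader that supports stem cell upkeep, was at 28.4 and 27.2 CPM in LSK Mut, against 102 and 58.8 CPM in LSK WT, and its interaction was -2.51 (SE 0.564, adjusted p = 0.0425). Mecom lost its call (adjusted p = 0.0242) without either LSK Mut library, MPP Mut replicate 2 or either MPP WT library, and Mllt3 kept its call in 2 of the 12 fits that left out 1 library, those without LSK WT replicate 1 and without LSK WT replicate 2. Of 19 lymphoid-primed genes, Mef2c and Dntt were called negative. Dntt, the template-free polymerase of lymphoid progenitors, was at 228 and 221 CPM in LSK Mut, against 435 and 317 CPM in LSK WT, and at 96.8 and 84.2 CPM in MPP Mut, against 77.1 and 56.8 CPM in MPP WT, and gave -1.18 (SE 0.268, adjusted p = 0.0446). Mef2c, a factor of lymphoid priming, gave -1.22 (SE 0.276, adjusted p = 0.0429). Of the 12 fits that left out 1 library, Mef2c and Dntt kept their calls in the same 2 as Mllt3.

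Megakaryocyte and erythroid genes were negative where called, except under spike-in scaling, where 6 genes of the progenitor list were called positive and 0 negative. Of 22 progenitor genes 3 were called, Car1, Tfrc and Tal1, and of 9 erythroblast genes 1, Alas2, against 1.01% called negative among all genes tested. Tfrc, the transferrin receptor, was at 60.2 and 32.7 CPM in LSK Mut, against 99 and 170.1 CPM in LSK WT, and at 335 and 335 CPM in MPP Mut, against 176 and 178 CPM in MPP WT. It was lower in Mut in LSK and higher in Mut in MPP, with an interaction of -2.46 (SE 0.411, adjusted p = 0.0143). Car1, a carbonic anhydrase of erythroid cells, gave -1.14 (SE 0.184, adjusted p = 0.0124), and Tal1, a factor of blood and erythroid development, gave -1.74 (SE 0.394, adjusted p = 0.0443). Alas2, the erythroid enzyme of heme synthesis, was at 0.056 and 0.918 CPM in LSK Mut, against 8.13 and 2.79 CPM in LSK WT, and at 59.4 and 55.5 CPM in MPP Mut, against 16 and 23.2 CPM in MPP WT. Kel, a red cell surface protease, had the same form, with 102 and 115 CPM in MPP Mut, against 57.8 and 71.3 CPM in MPP WT, and an interaction of -3.68 (SE 0.762, adjusted p = 0.031). The erythroblast list summed to 55.5 to 85.2 CPM in LSK Mut, against 74.2 to 113.1 CPM in LSK WT, and to 770.5 to 789 CPM in MPP Mut, against 449 to 455 CPM in MPP WT. The summed level of red cell genes was thus higher in MPP Mut than in MPP WT, and its part in these interactions was not tested. From 0 to 7 progenitor genes were called negative with 1 library left out, with 0 in the fit without MPP Mut replicate 1 and 7 in that without LSK WT replicate 1. Car1 kept its call in 9 of these 12 fits, Tfrc in 8, Kel in 4, and Tal1 and Alas2 in 3.

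Among the other negative genes with the largest values, Nxpe2 was at 2.41 and 0.81 CPM in LSK Mut, against 13.8 and 10.2 CPM in LSK WT, and at 70.3 and 60.7 CPM in MPP Mut, against 28.6 and 33.1 CPM in MPP WT (interaction -3.98 (SE 0.64, adjusted p = 0.0124)). Mn1, a transcriptional coregulator found in leukemia fusions, was at 22.5 and 11.7 CPM in LSK Mut, against 43.5 and 46.7 CPM in LSK WT, and at 8.27 and 5.07 CPM in MPP Mut, against 0.999 and 1.5 CPM in MPP WT (interaction -3.83 (SE 0.689, adjusted p = 0.0177)). In both genes Mut lay lower in LSK and higher in MPP without overlap. Mgll, the monoacylglycerol lipase, gave -4.06 (SE 0.852, adjusted p = 0.0325) and Rpia, an isomerase of the pentose phosphate pathway, -2.86 (SE 0.633, adjusted p = 0.0395). Sdc3, a syndecan (at least 21.2-fold), and Tbrg3 (at least 9.57-fold) were higher in MPP Mut than in MPP WT, where both had 0 counts. Neither effect was called in MPP (edgeR adjusted p = 0.342 and 0.157), nor in LSK. The MPP Mut libraries held 89 and 6 counts of Sdc3, so its bound rests mainly on 1 library. Col16a1, a collagen, had 3 counts in MPP WT and a ratio of 58.3 (95% interval 19.7 to 285). Adjusted p of the interaction was 0.0313 for Sdc3, 0.0196 for Tbrg3 and 0.0204 for Col16a1. All genes of this paragraph lost their interaction calls with limma-voom with sample quality weights and in the fit of the 8 Mut and WT libraries alone.

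Genes of energy metabolism and of division were positive more often than negative. The shares over all genes tested were 1.52% called positive and 1.01% called negative. Of 20 glycolysis genes, 5 were called positive (Aldoa, Ldha, Pgam1, Pkm and Tpi1) and 1 negative (Hk2, a hexokinase), with a median of 0.56. Ldha, the lactate dehydrogenase A chain, was at 1149.8 and 1177 CPM in LSK Mut, against 836 and 782 CPM in LSK WT, and at 1507 and 1528 CPM in MPP Mut, against 1582 and 1654 CPM in MPP WT, and gave 0.62 (SE 0.102, adjusted p = 0.0136). Hk2, which feeds glucose into the pathway, was at 37.2 and 34.1 CPM in LSK Mut, against 73.6 and 79.7 CPM in LSK WT, and gave -1.49 (SE 0.319, adjusted p = 0.0357). With 1 library left out, 0 to 8 were called positive, with 0 in the fits without LSK Mut replicate 1, either MPP Mut library or MPP WT replicate 2. Of 75 oxidative phosphorylation genes, 8 were called positive and 3 negative, with a median of 0.20. Uqcrc1, a core subunit of complex III, was at 557 and 672 CPM in LSK Mut, against 312 and 327 CPM in LSK WT, and at 883 and 891 CPM in MPP Mut, against 1016 and 1098 CPM in MPP WT, and gave 1.20 (SE 0.148, adjusted p = 0.00349). Atp5b and Atp5c1, subunits of the ATP synthase, gave 0.70 (SE 0.0996, adjusted p = 0.00663) and 0.97 (SE 0.165, adjusted p = 0.0154), and Ndufa2, a subunit of complex I, -0.99 (SE 0.169, adjusted p = 0.0156). Slc25a5, the carrier that exchanges ADP and ATP across the inner mitochondrial membrane, was at 745 and 751 CPM in LSK Mut, against 437 and 443 CPM in LSK WT, and gave 0.92 (SE 0.111, adjusted p = 0.00338). Uqcrc1, Atp5b and Slc25a5 kept their calls with any 1 of the 12 libraries left out, as did Lta4h, an enzyme of leukotriene synthesis (1.09 (SE 0.128, adjusted p = 0.00286)), and Tagln2, an actin-binding protein (0.92 (SE 0.114, adjusted p = 0.00349)).

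Of 38 cell cycle genes, 4 were called positive and 0 negative, with a median of 0.27. Aurkb, a mitotic kinase, was at 123 and 139.9 CPM in LSK Mut, against 39.2 and 43.4 CPM in LSK WT, and at 179 and 196 CPM in MPP Mut, against 207 and 185 CPM in MPP WT. The libraries stood apart in LSK and overlapped in MPP, the interaction was 1.74 (SE 0.225, adjusted p = 0.00419), and the call was kept with any 1 of the 12 libraries left out. Kif20a, a motor of cell division, gave 2.33 (SE 0.444, adjusted p = 0.0222). Mcm2 and Mcm7, parts of the replicative helicase, gave 0.91 (SE 0.159, adjusted p = 0.0159) and 1.0 (SE 0.194, adjusted p = 0.0233), and Ccnd3, a D cyclin, 0.92 (SE 0.204, adjusted p = 0.0414). In LSK 10 of the 38 were called higher in Mut and 1 lower, against 4.35% and 2.41% of all genes tested. In MPP edgeR called 0 in either direction, near the 0.0926% of all genes called there. An unadjusted p below 0.05 in MPP was reached by 0 of the 38, against 6.06% of all genes. The count ran from 1 to 11 with 1 library left out, with 1 in the fits without any 1 of the 6 LSK Mut, MPP Mut and MPP WT libraries. Single calls in further lists were Per1 (-2.30 (SE 0.362, adjusted p = 0.0116)) and Nr1d1 (adjusted p = 0.0346, with 5 counts in LSK WT) of the circadian clock, Tnfaip3 (-1.50 (SE 0.259, adjusted p = 0.0156)) and Nfkbia (-0.86 (SE 0.152, adjusted p = 0.0167)), both inhibitors of NF-kB, Idh2 (0.96 (SE 0.194, adjusted p = 0.0281)), which makes the cosubstrate of TET enzymes, and Kmt2a (-2.10 (SE 0.396, adjusted p = 0.021)), a histone methyltransferase. None of 34 interferon response, 16 heat shock, 26 cholesterol and fatty acid synthesis, 50 replication-dependent histone, 18 Hox and Meis, 20 myeloid cytokine receptor, 19 niche adhesion, 11 B cell, 8 stroma and 5 sex-linked genes was called by edgeR. Of their 207 members tested, 34 had an unadjusted p below 0.05, against 2390 of all 14033 genes tested (17%). DESeq2 called 16 of the 207, against 1093 of all 14033. Both counts lie near the shares over all genes.

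**Figure D4:**
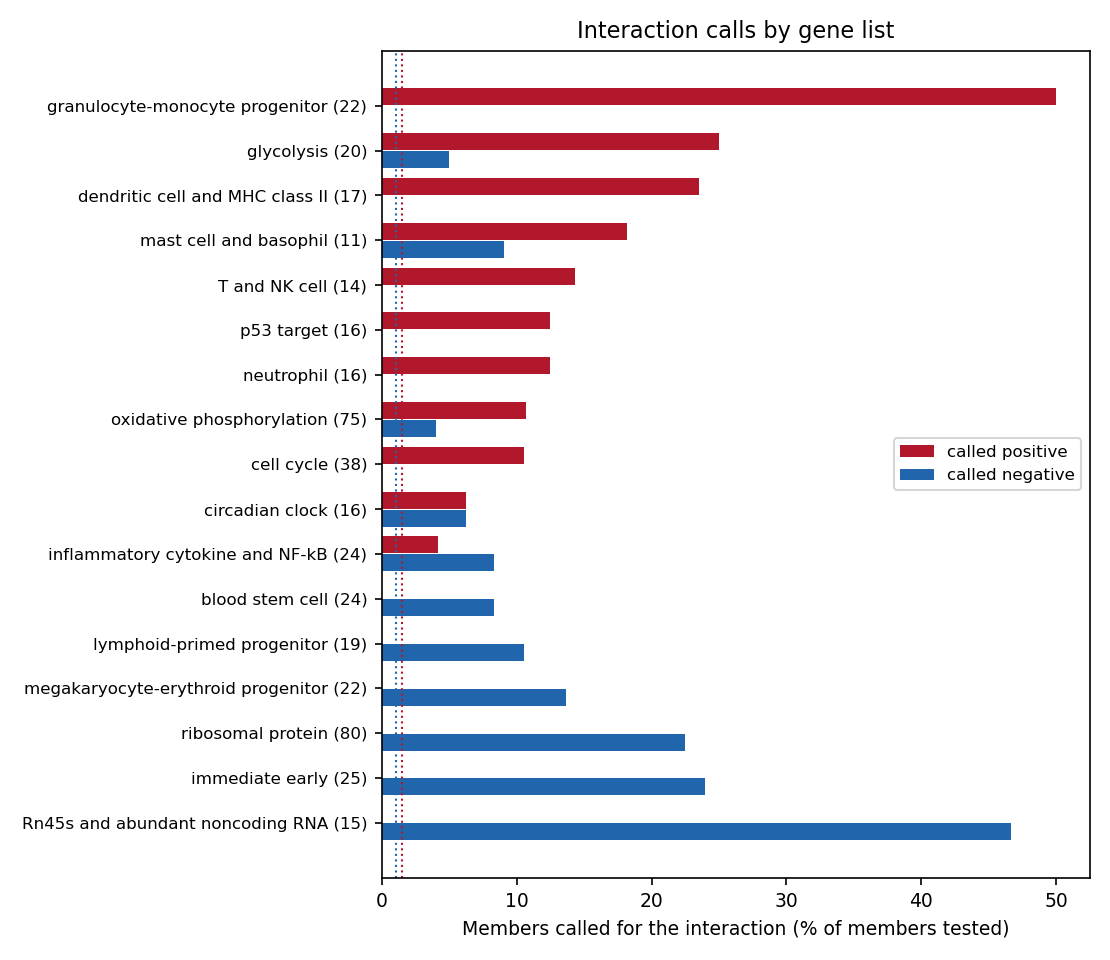
Members called for the interaction as a percentage of members tested (number in brackets), positive in red and negative in blue, for the lists with at least 2 calls. The dotted lines are the shares over all genes, 1.52% positive and 1.01% negative, and the granulocyte-monocyte progenitor list is highest on the positive side and the Rn45s and noncoding RNA list on the negative side.

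The KO libraries are no term of the interaction and give a separate view of where these genes stand between the populations. Of the 213 positive genes, 176 were lower in LSK KO than in MPP KO (82.6%), 115 of them called, against 47.4% lower and 8.14% called among all genes tested. Of the 142 negative genes, 118 were higher in LSK KO than in MPP KO (83.1%), 76 of them called, against 52.1% higher and 7.03% called among all genes. The median log2 difference of LSK KO from MPP KO was -0.76 for the positive genes, 0.59 for the negative genes and 0.05 for all genes. Genes with a positive interaction thus tended to be MPP-high in KO, and those with a negative interaction LSK-high. Both KO groups are single pools, the populations differ in many genes, and no test was made of these shares. For Mpo, LSK KO was at 3998 and 3823 CPM and MPP KO at 30182 and 30306 CPM, and for Elane at 193 and 173 and 8679 and 9249 CPM. For Malat1, LSK KO was at 9895 and 9770.4 CPM and MPP KO at 2781 and 2771 CPM, and for Fosb at 449 and 457 and 239.6 and 231 CPM. In LSK, KO lay near Mut for Mpo, near WT for Elane, and between Mut and WT for Malat1 and Fosb. The KO and Mut effects share the WT libraries, so no measure of their likeness is given.

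**Figure D5:**
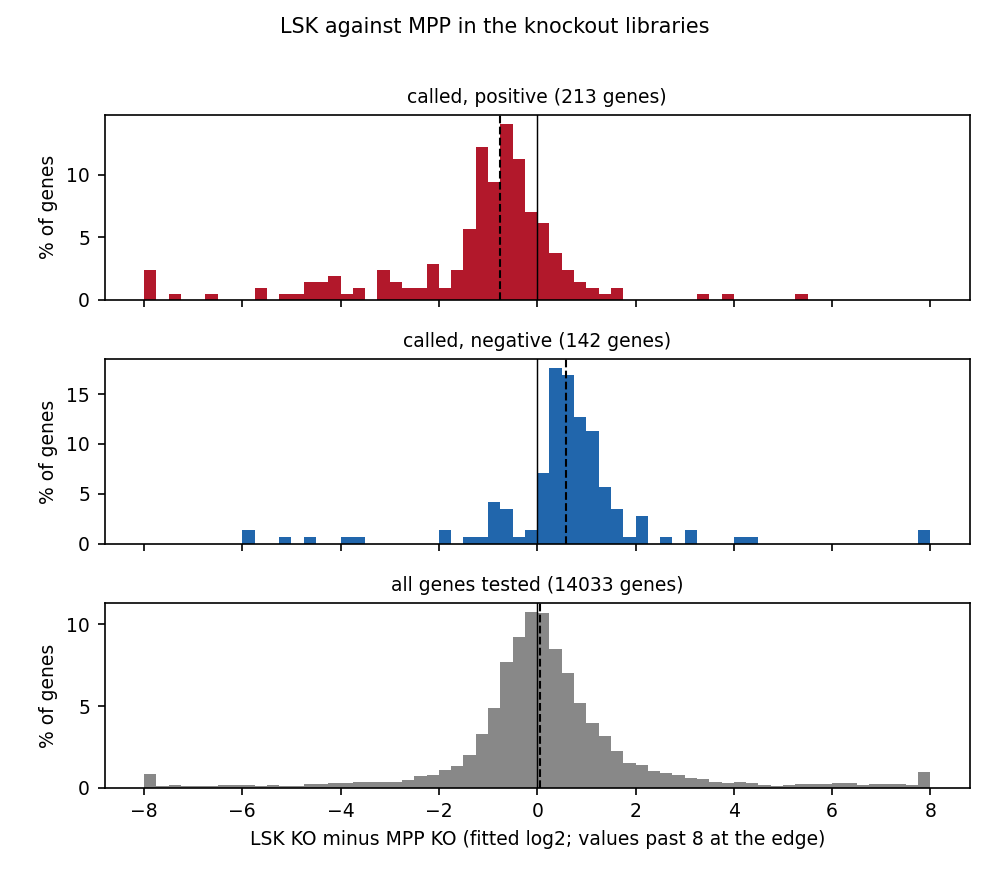
Share of genes (vertical) by fitted log2 difference of LSK KO from MPP KO (horizontal, values past 8 drawn at the edge) for the 213 positive and 142 negative interaction calls and for all 14033 genes tested, with the median dashed. The positive genes centre left of 0 (median -0.76), the negative genes right of 0 (0.59) and all genes near 0 (0.05).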

How the data were processed

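Gene counts of 12 libraries (6 groups of 2) were analysed: LSK Mut, LSK WT, LSK KO and the same genotypes labelled MPP. The deposited tables, one per population, hold raw counts per gene symbol (24630 rows, of which 92 are spike-ins), and no scaling by the authors was found in them. Per the submitters' processing notes, Trim Galore 0.4.1, TopHat2 2.0.13, HTSeq 0.6.1, Cufflinks and the mm10 build were used, and their settings, the strand of counting and the gene annotation are not given in the sources used here. A column of the MPP table named as a second KO library under another library number was taken as MPP KO replicate 2, the label left without a column.

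The tables were joined by symbol, spike-ins were left out of library sizes, and low genes were removed by edgeR's filterByExpr (groups as given, count of 10, total of 15). Libraries were scaled by TMM and fitted with a mean per group in edgeR 4.0.16 (R 4.3.3; quasi-likelihood test, 6 residual degrees of freedom, two-sided). Benjamini-Hochberg adjustment ran over all 14033 genes tested, and an adjusted p below 0.05 made a call. The SE of a log2 difference was taken from the test statistic. The script was tested on simulated counts. The alternatives used limma 3.58.1 and DESeq2 1.42.0 as well.

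Where a group had 0 counts, the fold was set against 3 counts in that group as a whole and is printed as "at least". For 1 to 3 counts, a count ratio with an exact 95% interval replaces the fitted fold. Both cover counting error only, since reads were not tied to single molecules. Replicate numbers did not pair the libraries. Positions are from GENCODE M21 (GRCm38), which matched 13754 symbols, and promoters from RefSeq matched 71 of the 86 genes named.

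The comparison, the 34 gene lists and the tests were chosen with earlier results of these data known. Genes named were, among those called for the interaction, up to 12 per direction with the largest fitted value and up to 10 with the lowest p, each with a mean of at least 100 counts in its highest group, up to 4 called members of a list, genes called in opposite directions in the populations, and Tet1, Tet2 and Tet3. Not eligible were small RNAs, predicted genes, clones, segments of antigen receptor loci, mitochondrial genes and spike-ins. Further called members of a list are named to complete its count, after their values were seen. Results of 2 genes are not reported here.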

Additional observations from a re-analysis of the deposited data

Results flagged for a closer look

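The mutant effect differed between LSK and MPP by the test of the difference itself (edgeR quasi-likelihood interaction, Benjamini-Hochberg adjusted p below 0.05) for 83 of the genes named. For 58 of them, all groups held over 3 counts, and the difference of the log2 effects (LSK minus MPP) is given. The difference was 5.97 for Nr1d1, 3.78 for Ly6c2, 2.72 for H2-Aa, 2.34 for Elane, 2.33 for Kif20a, 1.74 for Aurkb, 1.71 for H2-Ab1, 1.69 for Mpo, 1.51 for Irf8, 1.43 for Ms4a3 and 1.37 for Pgam1. Further positive values were 1.20 for Uqcrc1, 1.13 for Cd74, 1.09 for Lta4h, 1.01 for Cd48, 1.0 for Mcm7, 1.0 for Nkg7, 0.97 for Atp5c1, 0.96 for Idh2, 0.92 for Aldoa, 0.92 for Tagln2 and 0.92 for Slc25a5. Lower positive values were 0.92 for Ccnd3, 0.91 for Mcm2, 0.70 for Atp5b and 0.62 for Ldha. Negative differences were -5.0 for Alas2, -4.06 for Mgll, -3.98 for Nxpe2, -3.83 for Mn1, -3.68 for Kel, -2.86 for Rpia, -2.63 for Lars2, -2.51 for Mllt3, -2.50 for Kcnq1ot1, -2.46 for Tfrc and -2.30 for Per1. Smaller negative values were -2.27 for Ddx17, -2.11 for Rplp1, -2.10 for Kmt2a, -2.03 for Rps21, -1.92 for Fcer1a, -1.74 for Tal1, -1.74 for Nr4a1, -1.69 for Rn45s, -1.56 for Fosb, -1.50 for Tnfaip3 and -1.49 for Hk2. Nearer to 0 were -1.36 for Malat1, -1.33 for Rps24, -1.33 for Egr1, -1.22 for Mef2c, -1.21 for Ptma, -1.18 for Dntt, -1.14 for Car1, -0.99 for Ndufa2, -0.86 for Nfkbia and -0.54 for Fos. For the other 25, a group held 3 counts or fewer, and the adjusted p of the interaction is given in place of a fitted difference. Among positive genes it was 7.44e-06 for Prg2, 8.71e-05 for Prss34, 0.00548 for Chil3, 0.00966 for Dram1, 0.0109 for Cd14, 0.0109 for Arhgef11, 0.0156 for Ehd3, 0.0156 for Pik3r6, 0.0156 for Nim1k and 0.0203 for Ms4a2. Higher values were 0.023 for Mapk13, 0.0243 for Cx3cr1, 0.0248 for Trem1, 0.029 for Perp, 0.0316 for Syt3, 0.0368 for Ifitm6, 0.0384 for Phlda3, 0.0446 for Rwdd2a and 0.0446 for Klrd1. Among negative genes it was 0.0104 for Sstr2, 0.0196 for Tbrg3, 0.0204 for Col16a1, 0.0206 for F11r, 0.0242 for Mecom and 0.0313 for Sdc3. In all but Prg2 and Lars2 one of the effects missed the threshold, or both did.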

How the results depend on the processing

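Of the counts of called genes (355 for the interaction, 949 for LSK, 13 for MPP and 307 for interaction calls with opposite signs), those under DESeq2 size factors (364, 899, 14 and 313), TMM within each population (367, 931, 15 and 316), a mean count of at least 50 (410, 1032, 15 and 354) and without the Rn45s and Lars2 rows (353, 949, 12 and 306) stayed within 1.5 times. Larger shifts came with spike-in scaling (5428, 4723, 4 and 5317), the DESeq2 Wald test (1093, 1958, 134 and 909), limma-voom with sample quality weights (134, 237, 49 and 123, of the interaction calls 35.8% positive), the 8 Mut and WT libraries alone (59, 400, 5 and 54) and a test against a 1.5-fold change (56, 144, 3 and 46). Without a filter on low counts 662, 1338, 56 and 555 were called. With each population fitted apart, an alternative added after the data were seen, 231 were called in LSK and 35 in MPP. Leaving out 1 library gave 71 to 1405, 254 to 2133, 0 to 34 and 62 to 1096. The causes were not tested. Libraries of the same number did not deviate together (r from -0.05 to 0.04 over 15 pairs of groups, 0 over 0.1), and a replicate block gave 248, 776, 9 and 216. Of the 83 called genes named, 29 kept their calls in all 12 fits that left out 1 library, and Mpo, Ly6c2 and Uqcrc1 in all 23 alternatives. Under spike-in scaling the interaction became positive for Malat1 (0.31), Ptma (0.48), Fosb (0.10), Egr1 (0.30), Mef2c (0.40), Dntt (0.49), Car1 (0.54), Tnfaip3 (0.14), Nfkbia (0.82), Fos (1.13), Hk2 (0.16), Rps24 (0.34), Ndufa2 (0.68), Tet1 (1.11), Tet2 (0.74) and Tet3 (1.43), each still below the median of all genes (1.74). The change of scaling moved that median up along with these genes. Tet3 ran from -0.63 to 0.19 with 1 library left out, the highest without LSK WT replicate 1. Counts of 0 or near 0 in LSK WT limit the folds named as lower bounds, and 2 libraries of 1 pool per group give no error between mice.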
